A study of Homo sapiens with 12 samples.

Results

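The genes described here form the feedback arm of TGF-beta and BMP signalling: ID1, ID2, ID3, SMAD6, SMAD7, SKIL, TGIF1, BAMBI and TGFB1. They were chosen by gene name, 9 of the 57736 genes in the count tables, and the counts of all 3′ regions listed under a name were summed. The cells were HepG2, a human liver cancer line, and Ls174, a human colon cancer line, both wild type by their labels. Each line was kept for 24 h without any extract (control) or with HME, a methanol extract of the red macroalga Hypnea musciformis that the labels give at 0.7 mg/ml. There were 3 libraries in each of the 4 groups. Each line is a single established culture, and HME is a mixture of compounds, so that the groups model the response of 2 cell lines to a whole extract at 1 dose and 1 time.

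TGF-beta and BMP ligands bind paired receptor kinases at the cell surface, which phosphorylate SMAD proteins that then enter the nucleus and switch genes on or off. Many of the genes switched on early feed back on the pathway. ID1, ID2 and ID3 are classical BMP targets whose proteins lack a DNA-binding region and hold E proteins away from DNA. SMAD6 and SMAD7 are inhibitory SMADs, SKIL and TGIF1 are nuclear corepressors of SMAD complexes, BAMBI is a receptor decoy without a kinase, and TGFB1 is the main TGF-beta ligand.

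The upstream sequences of the ID genes are shown because ID3 had the largest fitted difference between HME and control among the members that could be tested, in both lines, and ID1 and ID2 are its closest relatives in the list. They are the 250 bases before the annotated start in RefSeq (GRCh38.p14), read 5′ to 3′ on the strand of the gene. Capitals mark every match, on either strand, to the TATA box (TATAAA), to the binding site of the factor NF-Y (CCAAT), to a common SMAD-binding element (CAGAC) or to the palindrome that BMP SMADs bind (GGCGCC), and overlapping matches run together.
ID1, chr20:31605039-31605288, plus strand: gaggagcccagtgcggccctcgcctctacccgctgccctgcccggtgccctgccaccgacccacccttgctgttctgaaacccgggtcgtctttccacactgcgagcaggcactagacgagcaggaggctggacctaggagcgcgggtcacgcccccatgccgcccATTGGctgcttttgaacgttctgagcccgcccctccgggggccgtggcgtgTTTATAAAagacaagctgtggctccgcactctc
ID2, chr2:8681806-8682055, plus strand: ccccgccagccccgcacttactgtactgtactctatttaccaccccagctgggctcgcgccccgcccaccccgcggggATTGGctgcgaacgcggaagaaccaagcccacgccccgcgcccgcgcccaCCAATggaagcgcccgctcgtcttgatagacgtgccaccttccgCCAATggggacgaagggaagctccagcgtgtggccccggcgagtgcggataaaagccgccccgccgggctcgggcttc
ID3, chr1:23559502-23559751, minus strand: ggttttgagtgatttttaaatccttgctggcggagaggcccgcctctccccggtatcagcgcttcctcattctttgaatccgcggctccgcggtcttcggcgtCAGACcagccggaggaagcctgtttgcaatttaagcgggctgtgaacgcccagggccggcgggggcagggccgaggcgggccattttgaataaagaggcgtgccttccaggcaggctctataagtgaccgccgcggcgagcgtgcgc
In the ID1 sequence the capitals are a CCAAT match that begins 84 bases before the start and 2 overlapping TATAAA matches that begin 33 and 31 bases before it. The ID2 sequence holds 3 CCAAT matches, beginning 172, 122 and 78 bases before the start. The ID3 sequence holds 1 CAGAC match, 147 bases before the start, and neither CCAAT nor TATAAA. None of the 3 windows holds GGCGCC. Of the 35116 windows of this length in the table, 38.0% hold CAGAC, 32.0% CCAAT, 16.4% GGCGCC and 10.7% TATAAA, so that single matches are common. All 9 members have at least 1 window in the table, and SKIL, TGIF1, BAMBI and SMAD7 each have a window with CAGAC.

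The libraries held between 1790841 and 3656662 counts, and 1 count was worth between 0.255 and 0.618 CPM (the count of a gene per library size, with the library sizes scaled by TMM over all 12 libraries). The sum of 9 liver markers lay between 12993 and 21612 CPM in HepG2 and between 23.0 and 179 CPM in Ls174, and that of 9 colon markers between 384 and 491 CPM in Ls174 against 69.2 to 207 CPM in HepG2. VIL1, an actin-binding protein of brush borders, made most of the colon sum in HepG2, at 52.5 to 186 CPM against 42.1 to 78.7 CPM in Ls174. MUC2, GPA33 and CEACAM5 were at 0 in all HepG2 libraries, but MUC2, the mucin of goblet cells, was also at 0 in 2 Ls174 libraries and reached only 2.16 CPM there. Of the other lists, the blood cell markers PTPRC and CD3E were at 0 in all libraries, and 4 endothelial markers summed to at most 4.33 CPM. Among the blood cell markers LYZ, the lysozyme gene, made nearly all of the 95.2 to 551 CPM in HepG2, and it was highest at 4.58 CPM in Ls174. The sum of 7 mesenchymal markers reached 952 CPM in HME replicate 2 of HepG2, where DCN and LUM were at 0 and the collagen genes COL1A1 (546 CPM) and COL1A2 (404 CPM) made nearly all of it. It was at most 10.8 CPM in the HepG2 controls and 4.71 CPM in Ls174. Control replicate 2 of HepG2 and control replicate 1 of Ls174 also stood apart. Without the first, 921 genes rather than 375 were called in HepG2, and without the second, 979 rather than 134 in Ls174. The part of these libraries in the results was not tested, and values without them are given where they differ most.

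**Figure D1:**
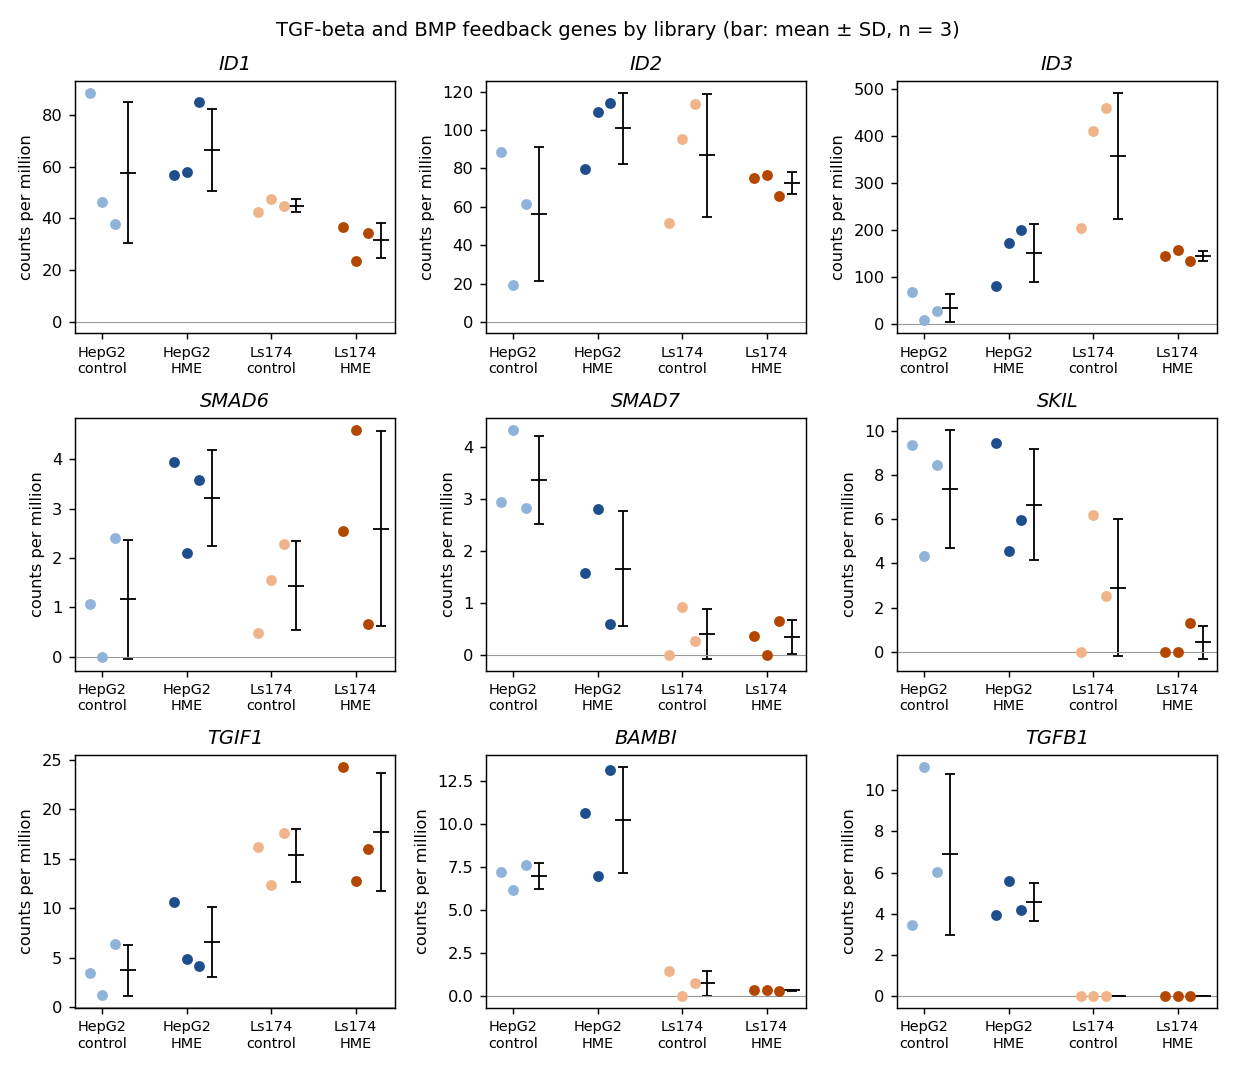
CPM of each of the 9 genes (vertical axis, linear) in every library, with 1 point per library and a bar for the mean ± SD (n = 3) beside each group. ID3 lies at 8.66 to 67.8 CPM in HepG2 control and at 81.5 to 199 CPM with HME, and in Ls174 the order is the opposite, while TGFB1 is at 0 in all 6 Ls174 libraries.

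The first question was whether HME changed the feedback genes in HepG2. ID3 was the member with the largest difference. Its CPM was 67.8, 8.66 and 28.5 in control replicates 1, 2 and 3 and 81.5, 174 and 199 in the HME replicates. All HME libraries lay above all controls, although HME replicate 1 and control replicate 1 were close. The fitted log2 fold change was 2.13 (SE 0.62, 95% interval 0.73 to 3.52), a 4.37-fold higher level, with an unadjusted p of 0.00692 and an adjusted p of 0.0925 by edgeR's quasi-likelihood test. With edgeR's p, ID3 therefore passed the limits in the study's methods (log2 fold change beyond 0.58 at an unadjusted p under 0.05). It did not pass an adjusted p under 0.05. The study took its p from metaseqR2, so that these values do not show whether it called ID3. With edgeR's p, the study's limits are passed upward by 11.3% of all 11343 genes tested in HepG2. Of the same genes, 15.5% have HME libraries that all lie above the controls. In RNA from whole cultures, a change in the share of cells that express a gene and a change of RNA per cell cannot be told apart.

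The size of the ID3 difference in HepG2 changed with the control libraries. Control replicate 2 had the lowest ID3 value (14 counts), and without it the log2 fold change was 1.71 (adjusted p 0.0540). Without control replicate 1, the highest of the controls, it was 3.02 with an adjusted p of 0.0471. With control replicate 2 and HME replicate 2 both left out it was 1.59 (adjusted p 0.0584). DESeq2 gave 2.14 with an adjusted p of 0.0102, edgeR's exact test 2.14 with 0.0176, and a single fit of all 12 libraries 2.08 with 0.0394. Over all alternatives the log2 fold change lay between 1.59 and 3.02, and the adjusted p between 2.94e-05 and 0.280.

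The other ID genes in HepG2 were less separated. ID2, which like ID3 binds E proteins, was at 88.4, 19.2 and 61.5 CPM in the controls and 79.9, 109 and 114 CPM with HME. Its groups overlapped only through control replicate 1, and its log2 fold change was 0.87 (SE 0.47, adjusted p 0.30). ID1 was at 88.7, 46.4 and 37.8 CPM without HME and 56.7, 58.1 and 84.8 CPM with it. Control replicate 1 was the highest of the 6 libraries, and the log2 fold change of 0.22 (SE 0.38, 95% interval -0.64 to 1.07, adjusted p 0.766) had no clear direction. The 95% interval of ID2 ran from -0.18 to 1.91.

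The inhibitory SMADs were near the limit of detection in HepG2. SMAD7, which blocks the receptors of both branches, had 11, 7 and 7 counts in the controls and 4, 8 and 1 with HME, between 0.597 and 4.33 CPM. In CPM all HME libraries lay below all controls, with HME replicate 2 at 2.80 next to control replicate 3 at 2.81. SMAD6, which acts mainly on BMP signalling, had 4, 0 and 6 counts in the controls and 10, 6 and 6 with HME. Neither gene passed the filter on low counts in any of the main fits. The ratio of summed counts scaled by depth, HME over control, was 2.44 for SMAD6 (95% interval 1.11 to 5.78) and 0.577 for SMAD7 (0.271 to 1.17), and these intervals cover counting error only.

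The corepressors, the decoy receptor and the ligand did not pass the test in HepG2. SKIL, the SnoN corepressor, had 35, 7 and 21 counts in the controls and 24, 13 and 10 with HME, and its log2 fold change of -0.15 (SE 0.47) changed sign when control replicate 1 or HME replicate 2 was left out (0.04 and 0.09). TGIF1 was at 3.47, 1.24 and 6.43 CPM in the controls and 10.6, 4.90 and 4.18 CPM with HME, so that the fitted change was 0.81 on the log2 scale (SE 0.61, adjusted p 0.452). BAMBI had 7.21, 6.18 and 7.63 CPM in the controls against 10.6, 7.0 and 13.1 CPM with HME. Its groups overlapped by 1 library, and its log2 fold change was 0.54 (SE 0.41, adjusted p 0.463). TGFB1 was at 3.47, 11.1 and 6.03 CPM without HME and 3.94, 5.60 and 4.18 CPM with it. The highest value belonged to control replicate 2, and without that library the log2 fold change of -0.51 (SE 0.55) became 0.06.

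In all, 7 of the 9 members could be tested in HepG2 and 0 were called at an adjusted p under 0.05, where the share of all genes called was 2.77% higher and 0.538% lower. At an unadjusted p under 0.05 the count was 1 (ID3), the same count that DESeq2 gave at an adjusted p under 0.05. The median log2 fold change of the 7 tested members was 0.54, and that of all tested genes -0.04.

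In Ls174 the same question gave the opposite sign for ID3. Its CPM was 204, 409 and 458 in the controls and 144, 157 and 134 with HME. All HME libraries lay below all controls, and control replicate 1 was closer to the HME libraries than to the other controls. The log2 fold change was -1.30 (SE 0.29, 95% interval -1.98 to -0.63), a 2.47-fold lower level, with an unadjusted p of 0.00186 and an adjusted p of 0.0921 by edgeR. Without control replicate 1 it was -1.57 with an adjusted p of 2.02e-05, DESeq2 gave -1.29 with 0.00270, and edgeR's exact test -1.30 with 0.00514. Over all alternatives it lay between -1.57 and -1.09, and the adjusted p between 2.02e-05 and 0.439.

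ID1 had the same order in Ls174, with smaller differences. It was at 42.5, 47.6 and 44.8 CPM in the controls and 36.6, 23.7 and 34.3 CPM with HME, so that its groups did not overlap either. The log2 fold change was -0.52 (SE 0.23, 95% interval -1.04 to 0.01, adjusted p 0.378). ID2 was at 51.4, 95.4 and 114 CPM in the controls and 75.0, 76.4 and 65.7 CPM with HME. Control replicate 1 was here the lowest library and the other controls the highest, and the log2 fold change was -0.27 (SE 0.28, 95% interval -0.91 to 0.37, adjusted p 0.697). Of all 11319 genes tested in Ls174, 12.2% have HME libraries that all lie below the controls, and 7.85% pass the limits of the study downward, as ID3 did.

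TGIF1 was the remaining member that could be tested in Ls174. It was at 16.1, 12.4 and 17.6 CPM in the controls and 24.3, 12.7 and 16.0 CPM with HME, and the log2 fold change was 0.19 (SE 0.33, adjusted p 0.820). HME replicate 1 was the highest library, and without it the value was -0.09. SKIL had 0, 20 and 10 counts in the controls and 0, 0 and 4 with HME, too few for the filter. The ratio of its summed counts scaled by depth was 0.142 (95% interval 0.0364 to 0.403, counting error only), and control replicate 1, at 0, was unlike the other controls. SMAD6 had 1, 5 and 9 counts without HME and 7, 13 and 2 with it. SMAD7 had 0, 3 and 1 against 1, 0 and 2, and BAMBI 3, 0 and 3 against 1 in each HME library. TGFB1 had no count in any of the 6 Ls174 libraries, which allows a level of up to 1.47 CPM (3 counts in control replicate 1, where that limit is highest).

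Of the 4 members tested in Ls174, 0 were called at an adjusted p under 0.05, with a background of 0.318% of genes called higher and 0.866% lower. At an unadjusted p under 0.05 it was 1 (ID3), and DESeq2 called the same number. The median log2 fold change of the 4 was -0.39, against -0.003 over all tested genes.

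**Figure D2:**
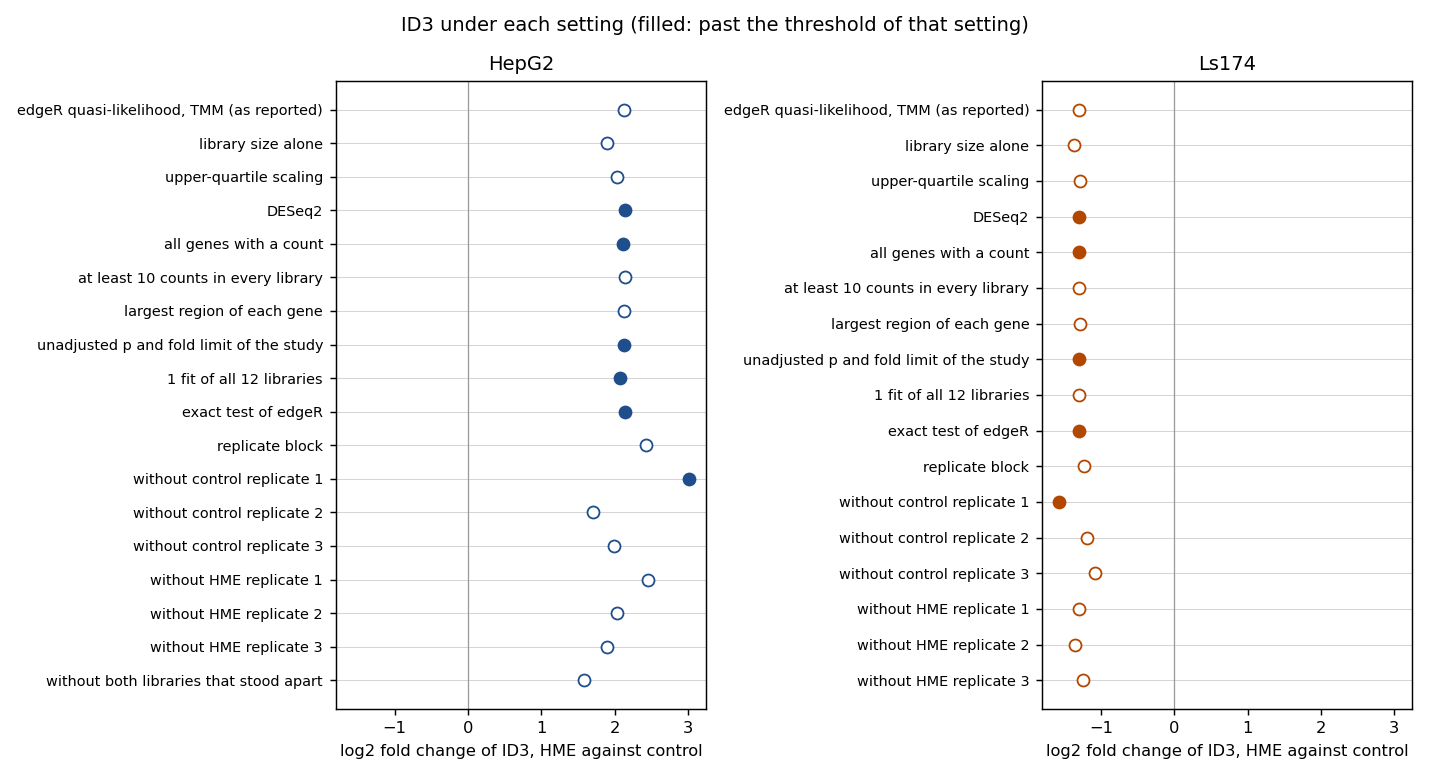
Log2 fold change of ID3, HME against control (horizontal axis), under each processing setting (rows) in HepG2 and in Ls174, filled where it passed the threshold of that setting. Every value is positive in HepG2 (1.59 to 3.02) and negative in Ls174 (-1.57 to -1.09), while the filling changes from setting to setting.

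Whether the response to HME differed between the lines was tested by the interaction of line and HME, fitted on all 12 libraries. For ID3 the log2 fold change in HepG2 exceeded that in Ls174 by 3.38 (SE 0.76, 95% interval 1.75 to 5.01). The unadjusted p was 0.000528 and the adjusted p 0.0634 by edgeR. Among all 13040 genes tested, 7.42% pass the limits of the study in this direction. Of the 9871 genes tested in both lines, 1.05% have HME libraries that all lie above the controls in HepG2 and all below them in Ls174, as ID3 did. Without the control library that stood apart in each line the difference was 3.19 with an adjusted p of 0.00483, and without HME replicate 2 of HepG2 as well 3.07 with 0.00326. Both of these settings were chosen after the libraries had been seen. With single libraries left out, the adjusted p fell below 0.05 without HepG2 control replicate 1 (0.0204), HepG2 control replicate 2 (0.0369) or Ls174 control replicate 1 (0.0352). Over all alternatives it ran from 5.22e-08 to 0.196, with differences of 2.92 to 4.24.

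The other ID genes had differences of the same sign that did not pass the test. That of ID2 was 1.09 (SE 0.60, 95% interval -0.19 to 2.38, adjusted p 0.463) and that of ID1 0.71 (SE 0.47, 95% interval -0.29 to 1.70, adjusted p 0.564). The difference for TGIF1 was 0.58 (adjusted p 0.805), that for BAMBI 1.40 (adjusted p 0.649) and that for SKIL 2.45 (adjusted p 0.466), where the HME libraries of Ls174 held 3 counts of BAMBI and 4 of SKIL in all. TGFB1 has no such difference, since Ls174 held no count of it. Of the 6 members with a value, 0 were called, with 0.613% of all genes called higher in HepG2 and 0.0307% called lower. At an unadjusted p under 0.05 it was 1 (ID3). DESeq2 called 1 member, ID3 (3.43, adjusted p 0.00127).

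In untreated cells 3 members differed in level between the lines by the test. ID3 was 9.97-fold lower in HepG2 control than in Ls174 control cells, 35.0 ± 30.1 CPM against 357 ± 135 CPM (SD, n = 3). The log2 difference was -3.32 (SE 0.68), with an adjusted p of 0.00662 by edgeR and at most 0.0423 in any alternative. TGIF1 was also lower in HepG2, 3.71 ± 2.60 CPM against 15.4 ± 2.69 CPM, a log2 difference of -1.97 (SE 0.58) with an adjusted p of 0.0360. BAMBI was higher in HepG2, 7.01 ± 0.746 CPM against 0.744 ± 0.734 CPM, a log2 difference of 3.32 (SE 0.82) with an adjusted p of 0.0172. For these 3 genes the libraries of the lines were fully separated. The TGIF1 call was lost in 4 leave-out fits (without HepG2 control replicate 1 or 2 or Ls174 control replicate 2 or 3, adjusted p 0.0527 to 0.122). The BAMBI call was lost in 4 as well (without HepG2 control replicate 1 or 3 or Ls174 control replicate 2 or 3, adjusted p 0.0590 to 0.0751). BAMBI passed the filter through HepG2 alone and TGIF1 through Ls174 alone, in each case the line where the gene is high. The calls of BAMBI and TGIF1 therefore add no independent support.

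TGFB1 was present in the HepG2 controls at 6.88 CPM on average and at 0 in all Ls174 controls, at least 4.69-fold higher in HepG2 when Ls174 is set to 3 counts per library. Nearly all of its counts, 75 of 79, came from 1 region at the end of the gene (chr19:41836031-41836956, GRCh37, minus strand). Another 3 came from a region that overlaps HNRNPUL1 and cannot be told apart from it without strand. TGFB1 did not pass the filter in this comparison, and it was called in each of the 8 alternative fits in which it was tested. It entered them through its HepG2 counts alone, so that these calls add no support. SMAD7 had 25 counts in the HepG2 controls and 4 in the Ls174 controls, a depth-scaled ratio of 7.33 (95% interval 2.53 to 29.0, counting error only). SMAD6 had 10 and 15. SKIL was at 7.37 ± 2.67 CPM in HepG2 and 2.91 ± 3.10 CPM in Ls174 (log2 difference 1.32, SE 0.87, adjusted p 0.328).

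ID1 and ID2 were at like levels in the untreated lines within their spread. For ID1 the means were 57.6 ± 27.2 CPM and 45.0 ± 2.51 CPM (log2 difference 0.39, 95% interval -0.47 to 1.25, adjusted p 0.516), and without HepG2 control replicate 1 the sign changed (-0.03). For ID2 they were 56.3 ± 34.9 CPM and 86.8 ± 32.0 CPM (log2 difference -0.60, 95% interval -1.79 to 0.60, adjusted p 0.472). Of the 6 members tested, 1 was thus called higher and 2 lower in HepG2. Across all 11907 genes the shares were 14.2% higher and 9.33% lower, and 22.3% and 20.4% of genes had groups that did not overlap in these directions.

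With HME, the lines were compared in the same way. ID3 was not called, at 152 ± 62.0 CPM in HepG2 and 145 ± 11.2 CPM in Ls174, a log2 difference of 0.08 (95% interval -0.55 to 0.72, adjusted p 0.826), with overlapping groups. The sign of this small value depended on the scaling and on single libraries. ID1 was higher in HepG2, 66.5 ± 15.8 CPM against 31.5 ± 6.89 CPM (log2 difference 1.09, SE 0.24, adjusted p 0.00273), and kept that call in all 13 alternatives. ID2 was at 101 ± 18.5 CPM against 72.4 ± 5.84 CPM (log2 difference 0.50, SE 0.20, adjusted p 0.0486), a call lost in 12 of 13 alternatives, with adjusted p up to 0.402.

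BAMBI, SKIL, TGIF1, SMAD7 and TGFB1 had the same order of the lines with HME as without it. BAMBI was at 10.3 ± 3.09 CPM in HepG2 and 0.348 ± 0.0186 CPM in Ls174, where each library had 1 count (69 against 3 counts in all, depth-scaled ratio 28.1, 95% interval 9.23 to 140, adjusted p 3.02e-05). SKIL was at 6.66 ± 2.52 CPM against 0.436 ± 0.755 CPM, 47 against 4 counts (log2 difference 3.74, SE 0.76, adjusted p 0.00169). TGIF1 was lower in HepG2, 6.57 ± 3.53 CPM against 17.7 ± 5.95 CPM (log2 difference -1.37, SE 0.39, adjusted p 0.0128), and missed the threshold without HME replicate 1 of Ls174 (adjusted p 0.0582). TGFB1 was at least 4.20-fold higher in HepG2. SMAD7 had 13 counts in HepG2 and 3 in Ls174, and SMAD6 22 in each, a depth-scaled ratio of 1.22 with a 95% interval of 0.646 to 2.32 (counting error only). Of the 6 members tested, 4 were called higher and 1 lower in HepG2, where 28.6% and 26.0% of all 11914 genes tested were called. Among the 4, BAMBI and SKIL passed the filter through HepG2 alone, where they are high, so that their calls add no independent support. The 2 comparisons between lines use different libraries.

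**Figure D3:**
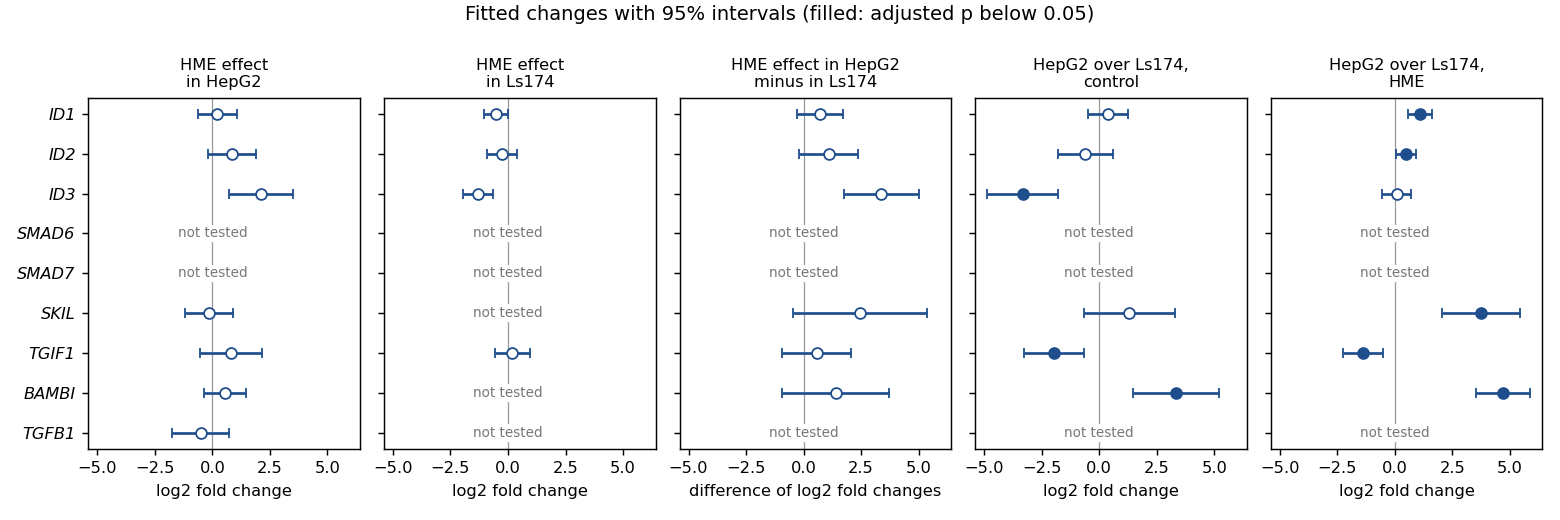
Fitted log2 fold changes (horizontal axis) of the members (rows) with 95% intervals in 5 comparisons, filled where the adjusted p is below 0.05. ID3 lies at 2.13 in HepG2 and -1.30 in Ls174 with open symbols, and moves from -3.32 between untreated lines to 0.08 between lines with HME.

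ID2 and ID3 varied together across the libraries. With log2 CPM centred on the mean of each line, their Pearson correlation over the 12 libraries was 0.911, that of ID1 and ID3 0.640 and that of ID1 and ID2 0.479. These points share libraries, depth and treatment, and both genes were low in control replicate 2 of HepG2 and control replicate 1 of Ls174, so that the values describe these libraries alone. Among 9097 other genes with a mean of at least 10 CPM, the closest to ID3 were SLC30A1 (r = 0.962), a zinc exporter, and MIER1 (0.951), a chromatin corepressor. Those closest to ID2 were WNK1 (0.970), a kinase of ion transport, and SEC16A (0.970), a scaffold of vesicle export, and those closest to ID1 were ZNF740 (0.893) and PDZD8 (0.879). TGIF1 was closest to TMEM258 (0.959) and CCNK (0.936), SKIL to NFE2L3 (0.859) and WLS (0.858), and AAR2 (0.857) was among the closest to BAMBI. For TGFB1, TRAPPC6A (0.949) and NUP188 (0.913) came first, and since it was at 0 in Ls174 these rest on the 6 HepG2 libraries.

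The counts of the ID genes came from the ends of their transcripts. All 1643 counts of ID1 fell in 1 region (chr20:30193641-30194515, GRCh37, plus strand) that covers the stop codon and the 3′ UTR. ID3 had all but 1 of its counts in the region at the 3′ end of the gene (chr1:23884212-23884935, minus strand), and ID2 had 96.0% in its last region (chr2:8823815-8824780, plus strand) and 3.96% in a region upstream of it. No other counted gene overlaps these regions. Using the largest region of each gene alone left the ID3 values at 2.13 in HepG2.

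The rest of the pathway was read from 103 genes in 8 lists. The lists were chosen with earlier results of these data known, so that their counts and medians are no independent support. In HepG2, 57 could be tested, and 7 were called higher and 0 lower with HME at an adjusted p under 0.05. Of all genes tested there, 2.77% were called higher and 0.538% lower. The median log2 fold change of the 57 was 0.32, against -0.04 for all genes. The list of TGF-beta targets had 4 of its 11 tested genes called higher and a median of 1.58. In Ls174, 1 of 52 was called higher and 0 lower, where 0.318% and 0.866% of all genes were called. The median of the 52 was -0.33.

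These counts changed with the libraries that stood apart, in fits added after those libraries had been seen. Without control replicate 2 of HepG2, 14 of 58 genes were called higher and 0 lower, where 5.67% and 2.07% of all genes were called, and 6 of the 11 TGF-beta targets were among them. Without HME replicate 2 of HepG2, 2 of 57 were called higher, BHLHE40 and KLF10 (1.18% of all genes). Without both, 10 of 57 were called higher and 1 lower, TAGLN, an actin-binding protein of smooth muscle (4.73% and 1.30% of all genes). Without control replicate 1 of Ls174, 3 of 53 were called higher, CDKN2B, GDF15 and INHBE, and 5 lower, ITGAV, NEDD4L, SKI, TGFBR1 and TGFBR3, where 3.06% and 5.33% of all genes were called.

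Of the 11 tested TGF-beta targets, 7 had a positive log2 fold change in HepG2 and 4 were called. TAGLN (-0.90), RHOB (-0.29), CTGF (-0.22) and FN1 (-0.13) had negative values, and TGFBI had 0.32, none of them called. The targets called in HepG2 were regulators of transcription and of the cell cycle. Of these, CDKN2B, BHLHE40 and KLF10 passed the filter only through the HME libraries, where they are high. Their calls therefore add no independent support. CDKN2B, an inhibitor of the cell cycle kinases, rose from 2.67, 0.618 and 2.01 CPM to 12.6, 17.5 and 15.5 CPM (log2 fold change 2.98, adjusted p 0.0132). It was at 5.38, 0.618 and 0.764 CPM in the Ls174 controls and 14.5, 9.55 and 10.5 CPM with HME, with no overlap (2.51, adjusted p 0.203). Without control replicate 1 of Ls174, the highest of these controls, the log2 fold change there was 3.97 (adjusted p 0.000195). BHLHE40, a transcriptional repressor, rose in HepG2 from 1.60, 0 and 2.81 CPM to 19.3, 24.9 and 22.7 CPM (3.78, adjusted p 0.0102). JUNB, an AP-1 subunit, rose from 4.81, 18.5 and 4.82 CPM to 39.7, 53.2 and 73.5 CPM (2.62, adjusted p 0.040), and without control replicate 2, the highest control, the value was 3.58 (adjusted p 0.000744). KLF10, also named TIEG for its early induction by TGF-beta, rose from 4.81, 2.47 and 4.02 CPM to 36.6, 499 and 50.8 CPM. Its log2 fold change of 5.66 (adjusted p 0.0197) owed its size to HME replicate 2, and without that library it was 3.51 (adjusted p 0.00867).

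Outside the targets, 3 further genes rose in HepG2. GDF15, a stress-induced member of the TGF-beta superfamily, went from 564, 2032 and 612 CPM to 7001, 12400 and 11819 CPM (log2 fold change 3.25, adjusted p 0.0197). Control replicate 2 was again the highest control, and without it the value was 4.22 (adjusted p 0.000556). It was also the gene called in Ls174, from 697, 409 and 350 CPM to 2113, 1617 and 2165 CPM (2.01, adjusted p 0.0337), and the interaction was 1.27 (adjusted p 0.437), which passed the test without the control library that stood apart in each line. FST, which binds and neutralises activins, went from 41.1, 60.0 and 43.4 CPM to 209, 149 and 145 CPM in HepG2 (1.80, adjusted p 0.0207) and was at 0 in all Ls174 libraries. RGMB, a BMP co-receptor, went from 3.74, 4.33 and 4.02 CPM to 14.2, 19.3 and 23.9 CPM (2.25, adjusted p 0.017). In HepG2 it passed the filter only through the HME libraries, where it is high, so that this call adds no independent support. In Ls174 RGMB was between 208 and 284 CPM in the controls and 104 and 228 CPM with HME, with overlap. Each of the 7 calls in HepG2 was lost without at least 1 of the 6 libraries, with adjusted p up to 0.155 (JUNB without HME replicate 3), and the GDF15 call in Ls174 was lost without any library except control replicate 1 (adjusted p up to 0.258).

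**Figure D4:**
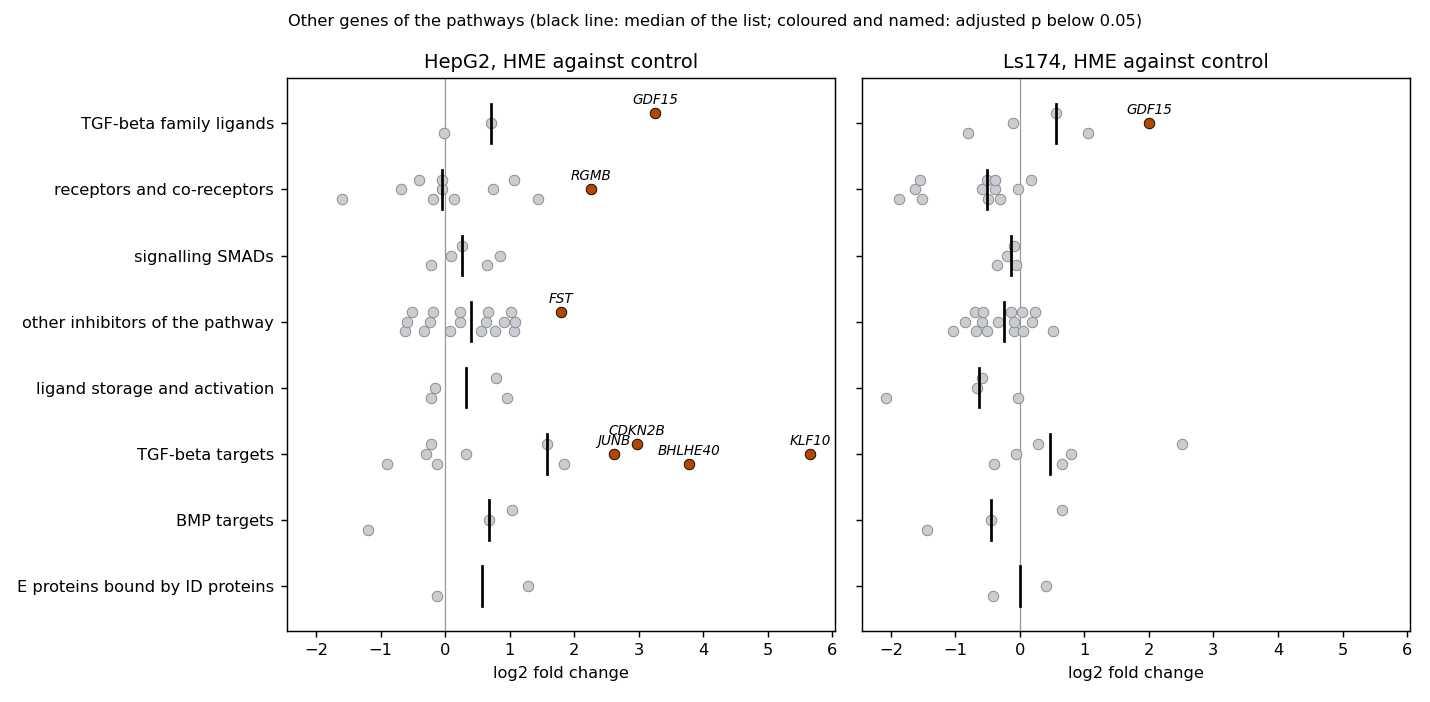
Log2 fold change with HME (horizontal axis) of every tested gene of the 8 pathway lists (rows) in HepG2 and in Ls174, with genes at an adjusted p under 0.05 coloured and named and the median of each list as a black line. The TGF-beta targets in HepG2 hold 4 of the 7 coloured genes, with a median of 1.58, and GDF15 is coloured in both lines. The lists were chosen with earlier results of these data known.

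The genes that carry the signal inside the cell were not called in either line with all libraries, and SMAD2 was called higher in HepG2 without control replicate 2. SMAD2, which transmits TGF-beta, was at 69.4, 58.7 and 61.1 CPM in the HepG2 controls and 113, 113 and 112 CPM with HME (log2 fold change 0.84, adjusted p 0.123). In Ls174 it was between 70.7 and 96.4 CPM in all 6 libraries (-0.06). SMAD3 had log2 fold changes of 0.65 in HepG2 and -0.09 in Ls174, and SMAD5, which transmits BMP, of 0.09 and -0.20. Of the E proteins that ID proteins bind, TCF3 was at 103 to 131 CPM in the HepG2 controls and 97.6 to 119 CPM with HME, and at 297 to 385 CPM in the Ls174 controls and 245 to 260 CPM with HME (log2 fold changes -0.12 and -0.41, adjusted p 0.821 and 0.391). TCF12 had values of 1.28 and 0.41, with control replicate 2 lowest in HepG2 at 2.47 CPM.

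In the list of ligand storage and activation, LTBP3 and ITGAV had log2 fold changes of -0.16 and -0.23 in HepG2. In Ls174 they had -0.03 and -2.07 (adjusted p of ITGAV 0.0526). THBS1, which can activate stored TGF-beta, had 0.79 in HepG2. Of the BMP targets with the highest levels, MSX1 had 0.68 in HepG2 and 0.65 in Ls174, GATA2 1.03 and -1.45, and HAMP, the iron hormone of the liver, -1.20 in HepG2. None of these passed an adjusted p under 0.05 with all libraries. MSX1 was called higher in HepG2 without control replicate 2, and ITGAV lower in Ls174 without control replicate 1. The negative value of HAMP rested on control replicate 2. HAMP was at 2.67, 27.8 and 6.03 CPM in the HepG2 controls and 7.87, 3.15 and 4.18 CPM with HME.

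Between the untreated lines, 19 of 58 tested pathway genes were called higher and 5 lower in HepG2, where 14.2% and 9.33% of all genes were. Some of these genes passed the filter only through the line where they are high, so that their calls add no independent support. Among them were FST and CHRD, without a count in the Ls174 controls, and BMP7, without a count in the HepG2 controls. Without the control library that stood apart in each line, 26 of 61 were called higher and 11 lower, where 24.1% and 19.9% of all genes were.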

How the data were processed

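RNA of HepG2 and Ls174 cells with and without HME was sequenced from 3′ (QuantSeq) libraries on an Ion Proton instrument. The authors used Hisat2 for alignment to hg19 and metaseqR2 for counting per 3′ region, and the submitters' processing notes also name Bowtie2 and Trimmomatic. The deposited values are read counts per region, without normalization. How multiply aligned reads and strand were treated is not given in the sources used here. Paper and labels give slightly different HME concentrations, and the label's is used.

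Counts were summed per gene name. Tests used edgeR 4.0.16 in R 4.3.3 (TMM, filterByExpr, quasi-likelihood F test, two-sided) on the 6 libraries of each line or treatment, and the interaction on all 12, with Benjamini-Hochberg adjustment over all tested genes and a call at an adjusted p under 0.05. The SE was derived from the F statistic. Libraries are the study's biological triplicates. CPM used the TMM factors of all 12 libraries. A level of 0 was set to a floor of 3 counts per library. Intervals of ratios are exact and, like the floor, cover counting error only. Upstream sequences came from a RefSeq table (GRCh38.p14), and protein sequences were not analysed here.

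Alternatives were DESeq2 1.42.0, edgeR's exact test, 2 other scalings, 2 other filters, the largest region alone, the study's limits, 1 fit of all libraries, a replicate block and leaving out libraries. The code was tested on simulated data.

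The members and lists were chosen with earlier results of these data known. All members are named, as are pathway genes with an adjusted p under 0.05 for HME or the interaction, otherwise the 3 with the highest mean CPM of a list, and the 2 genes most correlated with a member. Some genes that the rule covers are not reported here. The CCAAT motif, ACVR2A and USP15 were added after values were seen. No p-value over the members alone is given. Figures were drawn with matplotlib 3.10.9.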

Additional observations from a re-analysis of the deposited data

Results flagged for a closer look

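The response to HME was compared between HepG2 and Ls174. Values of the interaction existed for 6 members and 61 pathway genes, and 6 genes stood out. Of these, only RGMB and TGFBR3 passed the interaction test with all libraries, where 0.613% of all 13040 genes were called higher. For the other 4, as for TGFBR3, the HME libraries all lay above the controls in HepG2 and all below them in Ls174. This is a pattern of 1.05% of the 9871 genes tested in both lines. In those 4 the difference itself did not pass the test with all libraries. Without the 3 libraries that stood apart, a setting chosen after seeing the data, ID3, ACVR2A and GATA2 passed the test as well. The values are the log2 fold change in HepG2 minus that in Ls174, from edgeR's quasi-likelihood fit of all 12 libraries. ID3 had a difference of 3.38 (adjusted p 0.0634). The same pattern was seen in GATA2, a BMP target (2.45, adjusted p 0.124), in ACVR2A, an activin receptor (1.63, adjusted p 0.163), and in USP15, a deubiquitinase of the pathway (2.09, adjusted p 0.217).

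The interaction test called RGMB (2.75, adjusted p 0.0173) and TGFBR3, the betaglycan co-receptor (2.59, adjusted p 0.0360). TGFBR3 was at 151, 76.0 and 112 CPM in the HepG2 controls and 192, 174 and 192 CPM with HME, and at 13.2, 24.1 and 32.3 CPM in the Ls174 controls and 8.70, 3.89 and 6.54 CPM with HME. With single libraries left out, the adjusted p reached 0.0638 for RGMB and 0.151 for TGFBR3. The libraries whose removal raised it most were HepG2 HME replicate 3 for RGMB and Ls174 HME replicate 2 for TGFBR3.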

How the results depend on the processing

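The number of members called depended on the test and on single control libraries, through ID3 in the comparisons with HME. In HepG2 it was 0, and 1 with DESeq2, all genes with a count, the study's limits, 1 fit of all 12 libraries or edgeR's exact test, and 0 to 1 with each library left out. In Ls174 it was 0, and 1 with DESeq2, all genes with a count, the study's limits or the exact test, and 0 to 1 with each library left out. For the interaction it was 0, and 1 with DESeq2, all genes with a count, the study's limits, without the control library that stood apart in each line or without the 3 that stood apart (both chosen after seeing the data), and 0 to 1 with each library left out. Between the untreated lines 3 were called (2 to 4 with each library left out) and between the lines with HME 5 (4 to 5), and with at least 10 counts in every library, where 3 members could be tested, 1 in each. In the main fits BAMBI, and SKIL with HME, passed the filter through HepG2 alone, and TGIF1 between the untreated lines through Ls174 alone. The comparison of the lines with HME was itself added after seeing the data.

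Signs turned for values near 0. With each library left out, log2 fold changes in HepG2 ran from -0.48 to 0.092 for SKIL (positive without control replicate 1 or HME replicate 2), from -0.89 to 0.059 for TGFB1 (positive without control replicate 2) and from -0.018 to 0.65 for ID1 (negative without control replicate 3). In Ls174, TGIF1 ran from -0.095 (without HME replicate 1) to 0.39. Between the untreated lines, ID1 ran from -0.032 (without HepG2 control replicate 1) to 0.64. Between the lines with HME, ID3 ran from -0.16 to 0.39 (negative without HepG2 HME replicate 2 or 3), and it was -0.21 with library size alone and -0.098 with upper-quartile scaling. The cause was not tested. Library-size scaling moved the median of all genes in HepG2 from -0.04 to -0.20. Of the values under alternatives, counted only for members that passed the filter in the comparison itself, 418 kept sign and side of the threshold, 22 lost a call, 19 gained one and 10 changed sign. TGFB1, which did not pass it between the lines, was called in 8 alternative fits of the controls and 7 of the HME libraries. It entered these fits through HepG2 alone, so that the calls add no support.

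Over all genes, DESeq2 called 1033 in HepG2 (edgeR 375), 434 in Ls174 (134) and 380 for the interaction (84). The labels do not say whether replicate numbers pair the samples. Correlations of same-numbered deviations were -0.150, 0.0730 and -0.116 in HepG2 and -0.0394, 0.00552 and -0.0601 in Ls174. Those of differently numbered deviations in HepG2 ran from -0.155 to 0.264. So few values cannot decide whether the samples were paired. With the replicate number as a block, 0 members were called in HepG2, Ls174 and the interaction, and 349, 0 and 16 genes in all. Members with few counts (SMAD6, SMAD7, and SKIL, BAMBI and TGFB1 in Ls174) are limited by depth.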
